A study of Drosophila melanogaster with 37 samples.

Results

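CLAMP binding to chromatin was compared between S2 cells depleted of CLAMP by RNA interference and control S2 cells, by asking which CLAMP sites of the control cells were still called as peaks. S2 is an established line of male Drosophila melanogaster cells. The libraries were chosen by their antibody and RNAi labels: rabbit anti-CLAMP precipitations after CLAMP RNAi (replicates 1 and 2) and after GFP RNAi (replicates 1, 2 and 4), which is 5 of the 37 samples of the series. Both groups received dsRNA at 4.5 ug/mL, directed against CLAMP in one group and against GFP, the non-targeting control, in the other. No other allele or agent is labelled in either group. The labels do not say that replicates came from separate cultures, so p-values over libraries measure only the spread between these libraries, which may be technical. The series also holds GAF and MSL3 precipitations and GAF RNAi, used here only where they describe the CLAMP sites.

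CLAMP recognises GA-rich DNA through an array of zinc fingers. It is found at many promoters on all chromosomes, and on the male X it is needed for the MSL dosage compensation complex, of which MSL3 is a subunit, to reach its sites. GAF, the GAGA factor, binds related GA-repeat sequences. RNAi lowers the messenger RNA and leaves a variable amount of protein, so a ChIP after RNAi shows the sites at which enough protein remains to be detected. The deposited lists hold regions passed by a peak caller, so a site that leaves a list has fallen below the caller's limit in that library and is not shown to be unbound. The lists hold no read counts and the depth of each library is unknown. Loss of CLAMP and a shallower or less enriched precipitation cannot be told apart from list length. The amount of CLAMP left was not analysed here.

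On the major arms (X, both arms of chromosomes 2 and 3, and the small chromosome 4) the control lists held 5380, 2178 and 10984 peaks (GFP RNAi replicates 1, 2 and 4). The CLAMP RNAi lists held 749 and 430 peaks, fewer than any control list. Fold enrichment, a ratio computed by the authors' peak caller for each peak in its own library, had a median of 2.09, 3.72 and 1.86 in the control lists and of 3.47 and 3.19 after CLAMP RNAi. The highest fold was 13.4, 9.07 and 10.6 in the controls and 11.2 and 6.65 after CLAMP RNAi. A large part of the peaks were weak calls. Those with a q-value of at most 0.05 made up 67.3%, 67.5% and 26.4% of the control lists and 55.1% and 17.7% of the lists after CLAMP RNAi.

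Most control sites dropped out, and nearly everything that was called after CLAMP RNAi was already a control site. Control sites are the 2751 regions called in at least 2 of the 3 control lists, out of 13726 merged regions called in any of them. Lists of 749 and 430 peaks are too short to cover most control sites, so the size of the drop largely follows list length. Control sites also come from the group with the longer lists. In CLAMP RNAi replicate 1, 691 of them were called (25.1%, exact 95% interval 23.5 to 26.8), and in replicate 2, 415 (15.1%, 13.8 to 16.5). These intervals cover counting error only. Both lists called 385 sites (14.0%), at least 1 list called 721 (26.2%), and neither called 2030 (73.8%). The replicates were largely nested: 306 sites (11.1%) were called in replicate 1 only and 30 (1.09%) in replicate 2 only. Of the peaks of replicate 2, 398 of 430 (92.6%) overlapped a peak of replicate 1, and 394 of 749 (52.6%) did so in the other direction.

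How steadily a site was called in control cells went with whether it was called after RNAi. Among the 1782 sites present in every control list, 382 (21.4%) were called in both CLAMP RNAi lists and 1088 (61.1%) in neither. Among the 969 sites present in exactly 2 control lists, 27 (2.79%) were called in at least 1 CLAMP RNAi list. In the opposite direction, 723 of 749 peaks of replicate 1 (96.5%) and 429 of 430 of replicate 2 (99.8%) lay at a control site. A further 19 and 1 peaks lay at regions called in a single control list. Replicate 1 had 7 peaks that overlapped no control peak and replicate 2 had 0. No region called in both CLAMP RNAi lists was absent from the control lists. A short control list was also mostly contained in the longer ones. Of the 2178 peaks of GFP RNAi replicate 2, 99.2% overlapped a peak of replicate 1 and 87.7% a peak of replicate 4. Containment of short lists in longer ones therefore does not show that RNAi leaves no site of its own.

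Fold rank in control cells ordered the sites that stayed. Each site's strength was its mean percentile rank by fold within the control lists that called it, and sites were then split into deciles and quintiles of strength. In the strongest decile, 84.4% were called in CLAMP RNAi replicate 1 and 60.1% in replicate 2. The share was 59.6% and 39.3% in the next decile, 40.4% and 20.4% in the one after it, and 2.91% and 0.364% in the weakest. Over quintiles the share called fell from 72.1% to 2.36% in replicate 1 and from 49.7% to 0.545% in replicate 2. The difference between the strongest and the weakest quintile was 59.4 ± 14.5 percentage points (SD, n = 2 libraries), positive in both libraries. The median rank percentile was 10 for sites called in both lists, 17.3 for those called in 1 and 37.5 for those called in neither.

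**Figure D1:**
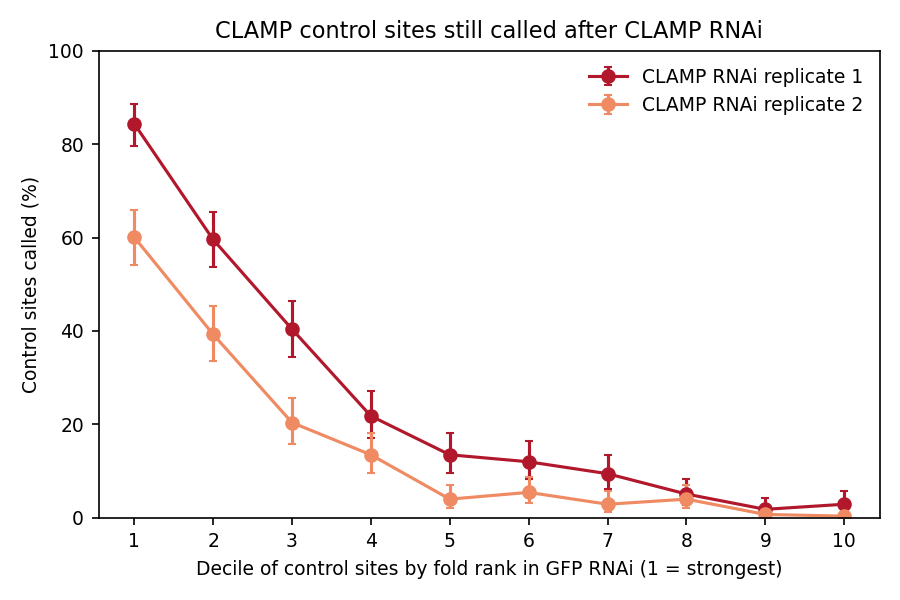
Percentage of control CLAMP sites called in each CLAMP RNAi list (y axis), by decile of control fold rank from strongest to weakest (x axis); points are site percentages in 1 library and bars are exact 95% intervals. Both libraries fall from their highest share in the strongest decile, 84.4% and 60.1%, to 2.91% and 0.364% in the weakest, and replicate 2 lies below replicate 1 throughout.

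The same order held in each control library taken alone. In GFP RNAi replicate 1 the sites called in both CLAMP RNAi lists had a median fold of 7.46, those called in 1 had 5.69 and those called in neither had 2.93. In GFP RNAi replicate 2 these medians were 5.35, 4.71 and 3.30, and in replicate 4 they were 4.83, 3.84 and 2.49. The order was not strict. A CLAMP RNAi list of the 430 strongest control sites would differ from the lists observed, since 77.7% of these sites were called in replicate 1, 55.1% in replicate 2, and 87 in neither.

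Sites at the top are named by their mean rank number over the 3 control lists, which differs from the mean percentile used for strength, since the lists differ in length. The 10 best by rank number stood at places 1 to 16 by percentile. All 10 were called in replicate 1 and 8 of them in replicate 2. The 10 best by percentile were called in 10 and 9 cases. At X 1292973 to 1294219 the fold was 13.2, 8.18 and 10.6 in the control libraries and 9.96 and 3.43 after CLAMP RNAi. At 2L 4809998 to 4810594 it was 12.9, 9.0 and 7.53 in controls and 8.60 and 4.78 after RNAi. Both lay within the first 52 peaks of every control list, and the second was at rank 23 and 41 within the CLAMP RNAi lists. A fold depends on the library it was computed in, so the lower values after RNAi are not a measured difference in occupancy.

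Survival was not equal among these sites. At 3L 6598806 to 6599471 the fold was 9.53, 7.76 and 9.48 in controls and 7.65 and 6.30 after CLAMP RNAi, which placed it eighth in the list of replicate 2. At 3L 6735231 to 6736340 it was 11.8, 8.81 and 7.66 in controls, 5.88 in CLAMP RNAi replicate 1, and the site was not called in replicate 2. At 3L 10878274 to 10879405 it was 9.49, 7.71 and 9.03 in controls and 2.97 in CLAMP RNAi replicate 1, rank 489 of 749, again with no call in replicate 2. These neighbours in control rank therefore lay far apart in the CLAMP RNAi lists. On the other arms the best site was still called in both lists: 2R 7356757 to 7357465 with 4.01 and 3.78, 3R 6490644 to 6491157 with 7.12 and 4.73, and 4 521886 to 522647 with 4.24 and 3.82.

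By percentile, the strongest sites that dropped out of both lists ranked 44 to 143 among the 2751. The first of them, 2L 594623 to 595503, had a fold of 9.0, 7.39 and 5.53 in the control libraries. The next, 2L 3533925 to 3534722, had 10.6, 7.35 and 3.93. The site at X 16985122 to 16985542 had 7.93, 6.54 and 7.40, and the one at X 20921048 to 20921653 had 7.80, 6.22 and 7.34. Of the 8 best-ranked sites that dropped out, 5 lay on X, 7 at a GAF control site and 4 in a control MSL3 region. In the strongest quintile of rank, where they stood, 37.6% of the 551 sites lay on X and 311 at a GAF control site. Over all control sites 21.0% lay in a control MSL3 region. The remaining X sites of these 8 began at positions 18264745, 170093 and 19576890, and the last lay at 3L 11239048 to 11239527. They were picked by their result, so these counts describe them only.

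At the other end, the 8 worst-ranked sites that stayed in both lists ranked 1946 to 2677. The lowest was 2R 1614198 to 1614877, with a fold of 3.26, 1.90 and 1.40 in the controls, the last at rank 10901 of its list. After CLAMP RNAi it had 4.69 and 1.80, at ranks 188 and 424. At 3L 17988285 to 17989019 the fold was 5.19, 2.21 and 1.93 in controls and 3.84 and 3.90 after RNAi, the last at rank 103. All 8 sites were called in every control list, 6 lay at a GAF control site, and 0 lay on X or in a control MSL3 region. Over all control sites 49.2% lay at a GAF control site, 27.8% on X and 21.0% in an MSL3 region. In the 2 weakest quintiles of rank 24.7% and 14.5% lay on X. These 8 were also picked by their result, so the counts describe them only. Several were ranked far apart by the control libraries themselves: 2L 2130122 to 2130954 was at rank 262 in GFP RNAi replicate 1 and at 6286 in replicate 4.

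Wider control sites stayed called more often, also within quintiles of fold rank. Sites called in both CLAMP RNAi lists had a median control width of 541 bp, those called in 1 list 446 bp and those called in neither 304 bp. From the narrowest to the widest quintile, median widths of 224, 282, 344, 431 and 608 bp, the share called rose from 0.544% to 63.3% in replicate 1 and from 0.181% to 43.8% in replicate 2. Each quintile of fold rank was then split at its median width. In the strongest quintile 84.0% and 62.9% of wider sites were called, against 60.1% and 36.6% of narrower ones. In the second quintile the shares were 52.2% and 27.4% against 10.1% and 6.52%.

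Averaged over quintiles of rank, wider sites were called more often by 20.3 points in replicate 1 and 12.8 in replicate 2 (16.5 ± 5.28, SD, n = 2). The split did not fully equalise strength. Wider sites of the strongest quintile had a median rank percentile of 7.60 against 9.52, and in the second 20.4 against 22.2. In GFP RNAi replicate 1 their median fold was 7.61 against 6.60 in the strongest quintile and 5.21 against 4.29 in the second. Width and −log10 q also moved together in the control lists. In the strongest quintile the median −log10 q of wider sites was 103, 8.18 and 29.6 in GFP RNAi replicates 1, 2 and 4, against 67.9, 6.66 and 22.5 for narrower sites. With strength taken from −log10 q in place of fold, the difference was 10.9 and 7.24 points. The part of the remaining strength difference and of depth was not tested.

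**Figure D2:**
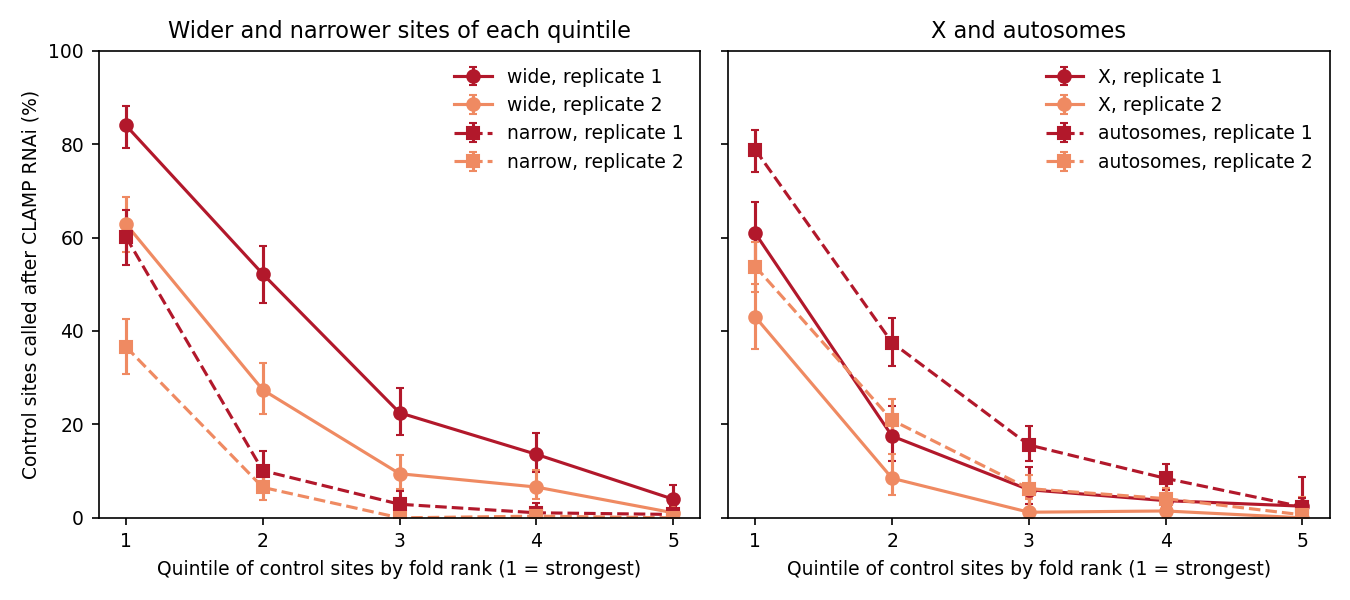
Percentage of control sites called in each CLAMP RNAi list (y axes), by quintile of control fold rank (x axes), with wider and narrower sites of each quintile on one panel and sites on X and on autosomes on the other; bars are exact 95% intervals. In the strongest quintile wider sites reach 84.0% and 62.9% against 60.1% and 36.6% for narrower sites, and X sites lie at 60.9% and 43.0% against 78.8% and 53.8% on autosomes.

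Where sites stayed called, the median peak was narrower, and summits mostly lay close to the control summits. At the 382 sites called in all 5 libraries the median peak width was 682, 364 and 532 bp in the controls and 286 and 261 bp after CLAMP RNAi. The groups did not overlap, but the controls differed among themselves by more than the gap between 364 and 286 bp. Depth is unknown, and its part in the width was not tested. The median distance between summits was 12.5, 11 and 14 bp between pairs of control libraries. It was 11 to 13.5 bp between a control and a CLAMP RNAi library, and 10 bp between the CLAMP RNAi libraries. Summits lay within 25 bp of each other at 73.3% to 82.2% of sites between controls and at 71.7% to 83.8% between a control and a CLAMP RNAi library. The median displacement after RNAi was therefore within the range seen among controls.

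Summits over 100 bp apart were a minority in every pair of libraries. Between controls they made up 3.66% to 6.02% of the 382 sites, and between GFP RNAi replicates 1 and 4 and a CLAMP RNAi library 3.40% to 5.76%. Between GFP RNAi replicate 2 and the CLAMP RNAi libraries the shares were 7.59% and 8.12%, above every control pair. The position of the summit within the control site was also alike for sites that stayed and sites that dropped out: the median relative position was 0.498 for sites called in both lists, 0.5 in 1 and 0.496 in neither. A site made of more than 1 control peak was commoner among those that stayed, at 18.7%, 11.9% and 4.33% of these groups. Longer regions can hold more peaks, and the share was not set at equal width.

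**Figure D3:**
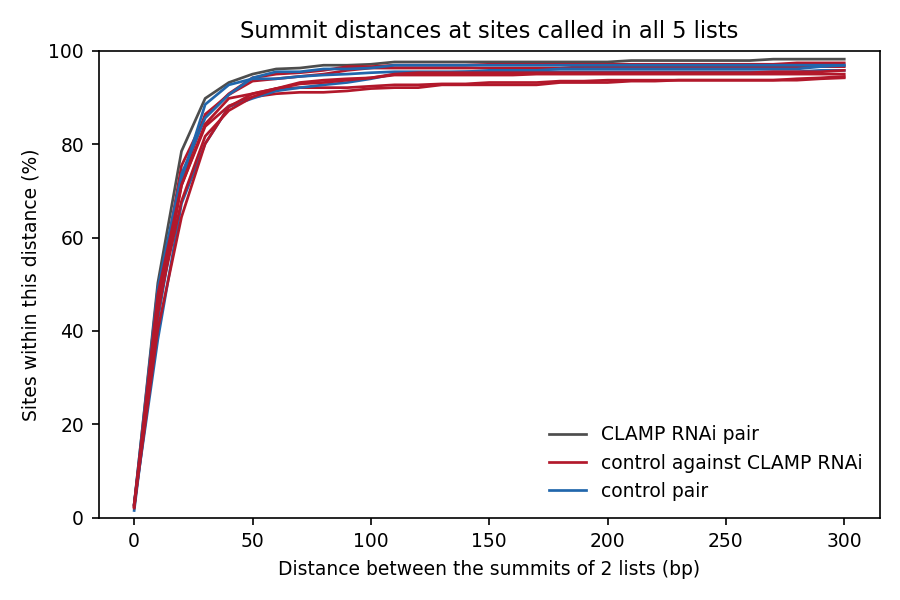
Cumulative percentage of the 382 sites called in all 5 libraries (y axis) by distance between the summits of a pair of libraries in bp (x axis), for pairs of controls, pairs of a control and a CLAMP RNAi library, and the CLAMP RNAi pair. The curves of control and RNAi pairs lie close to those of control pairs, with 71.7% to 83.8% of summits within 25 bp.

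Fold at these common sites kept part of the control order. Spearman's rho of fold over the 382 sites was 0.316 to 0.395 between control libraries, 0.232 to 0.442 between a control and a CLAMP RNAi library, and 0.350 between the CLAMP RNAi libraries. These are correlations across sites, which are not independent replicates, and no test is attached.

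By arm, the share called on X was near that of the other long arms in raw counts and lower once rank was equal. The share in replicates 1 and 2 was 24.7% and 18.4% of 429 sites on 2L, 27.4% and 16.8% of 457 on 2R, 22.9% and 11.2% of 511 on 3L, 28.6% and 15.3% of 576 on 3R, and 22.7% and 14.1% of 766 on X. On arm 4, 4 and 6 of its 12 sites were called. Read against the shares over all sites, 25.1% and 15.1%, X differed little in raw counts. X sites were over-represented among strong control sites: 207 of them stood in the strongest quintile, beside 344 autosomal sites.

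At equal fold rank, X sites were called less often than autosomal sites, with differences of −10.4 points in replicate 1 and −6.31 in replicate 2 (mean −8.37 ± 2.91, SD, n = 2), against −3.33 and −1.37 points without that adjustment. In the strongest quintile 60.9% and 43.0% of X sites were called, against 78.8% and 53.8% of autosomal sites. In the second quintile the shares were 17.5% and 8.47% against 37.5% and 20.9%, and in the third 6.02% and 1.20% against 15.6% and 6.25%. At the 1782 sites of every control list the difference by mean rank was −14.1 and −9.84 points. Rank from a single control library gave, at these same sites, −14.0 and −9.92 points for GFP RNAi replicate 1. It gave −12.2 and −8.61 for replicate 2 and −10.9 and −7.93 for replicate 4.

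X sites of a given fold also had smaller control peaks. Their median width in the strongest quintile was 429.7 bp against 508 bp on autosomes, and their median −log10 q was 73.3, 6.66 and 22.3 against 93.1, 7.89 and 29.2 in the control libraries. With strength taken from −log10 q the X difference was −5.64 and −2.84 points. Within strata of both rank and width, an alternative chosen after seeing the data, it was −6.84 and −4.46. The sign was negative in both libraries under each of these choices.

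The X difference was of like size inside and outside control MSL3 regions. There were 14324 such regions, and 52.0% of the 579 control sites inside them lay on X. A site outside a called region is not shown to lack MSL3. On X, control sites inside and outside control MSL3 regions differed at equal rank by −0.526 and −0.939 points. Outside MSL3 regions X sites differed from autosomal sites by −10.3 and −5.83 points, and inside them by −10.2 and −6.32. Among sites shared with GAF the X difference was −11.9 and −5.99 points, and among the rest −8.08 and −6.55. The differences between these subgroups were not tested.

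Sites shared with GAF stayed called more often in raw counts, but not among the strongest sites. Of the sites called in both, 1 and neither CLAMP RNAi list, 59.0%, 60.4% and 45.5% overlapped a GAF control site. At equal rank GAF-shared sites exceeded the others by 6.81 and 2.1 points (4.45 ± 3.33, SD, n = 2). Among the strongest sites the order was opposite, with 70.4% and 46.9% of shared sites called against 74.2% and 53.3% of the others. In the third it was 20.1% and 7.87% against 6.42% and 2.03%. The mean difference was 0.0344 points within strata of rank and width and −0.0609 with strength from −log10 q, so the difference depends on the measure of strength. MSL3 regions held 20.8%, 21.1% and 21.1% of the sites called in both, 1 and neither list.

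Having neighbours made a small difference whose sign depended on the choices made. A site was counted as clustered when another control summit lay within 10 kb, which was so for 61.3%, 64.0% and 64.1% of sites called in both, 1 and neither list. At equal rank, clustered sites differed from isolated ones by 0.613 points in replicate 1 and −0.868 in replicate 2 (−0.127 ± 1.05, SD, n = 2). The difference was positive in both libraries without GFP RNAi replicate 1 (3.94 and 2.40 points), with sites of every control list (2.29 and 1.29) and with neighbours within 5 kb (2.86 and 1.67). It was negative in both with strength from −log10 q (−1.55 and −2.30). The share called did not follow distance to the nearest site: it was 21.1% and 10.9% up to 1 kb, 31.6% and 20.6% from 1 to 2 kb, 20.7% and 10.5% from 5 to 10 kb, and 28.8% and 14.4% beyond 50 kb.

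**Figure D4:**
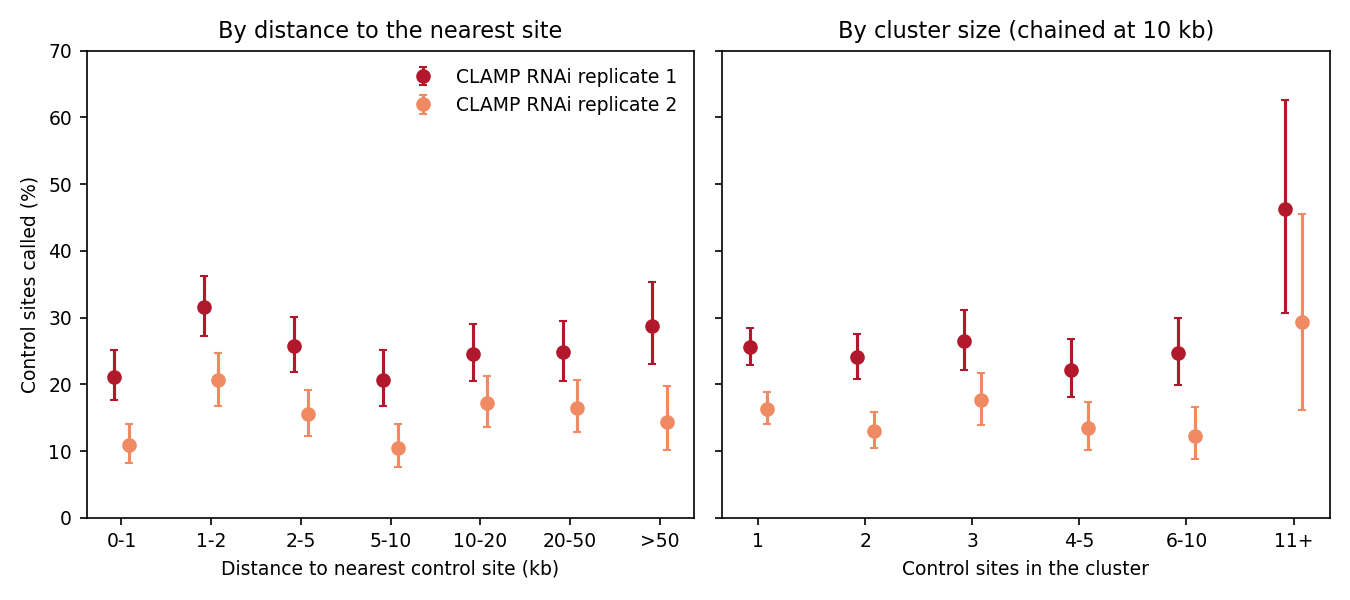
Percentage of control sites called in each CLAMP RNAi list (y axes) by distance to the nearest control site and by number of sites in the cluster (x axes), with exact 95% intervals. Shares show no steady order with distance, between 20.7% and 31.6% in replicate 1, and the group of largest clusters, 46.3% and 29.3%, rests on 41 sites in 3 clusters.

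Clusters lost all or some of their sites, and few kept every one. The share called in at least 1 list was 26.2% of all control sites, 25.7% of clustered and 27.0% of isolated ones. With so low a share few clusters can keep every site, so these counts do not set clusters apart from single sites. Sites chained at up to 10 kb formed 586 clusters of at least 2 sites. In 296 of them some sites were called in at least 1 CLAMP RNAi list and others in none, in 271 no site was called, and in 19 every site was. Where exactly 1 site was called, in 219 clusters, it was the strongest of its cluster in 187. In clusters of 6 to 10 sites this was so in 7 of 13. Stronger sites were called more often everywhere, so this count does not separate clustering from rank. Among the 320 pairs, 123 kept a single site, the stronger one in 114, and 17 kept both. Among sites of the strongest quintile, those within 10 kb of a called nearest neighbour were called in 80.2% of cases and those beside an uncalled one in 70.5%. For sites whose nearest neighbour lay beyond 10 kb the shares were 79.4% and 74.5%. This order did not hold throughout the weaker quintiles. Within 10 kb the shares were 41.1% and 31.0% in the second quintile. They were 13.0% and 14.0% in the third, 4.95% and 10.2% in the fourth, and 1.23% and 1.93% in the weakest. Beyond 10 kb the share beside a called neighbour was the lower one in every weaker quintile, with 22.9% and 34.2% in the second.

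The 3 largest clusters differed from each other. The one at 2R 6421472 to 6456818 held 16 sites, of which 5 were called in both lists, 3 in 1 and 8 in neither; 14 of its sites were GAF control sites. The one at X 2000604 to 2053491 held 14 sites, with 5, 4 and 5 in these groups. The one at 2L 19134863 to 19166449 held 11 sites, with 1, 2 and 8. Clusters of 6 to 10 sites had shares of 24.7% and 12.3%, close to the 25.6% and 16.3% of single sites, so size did not set the share below the largest group.

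Library by library, peaks were also compared in lists of equal length, the 430 of highest fold in each. For CLAMP RNAi replicate 2 these are its whole list, so no selection by fold was made there. With 3 control and 2 CLAMP RNAi libraries the smallest two-sided p of the exact permutation test is 0.2, so no difference could pass 0.05. The 6 measures were adjusted together by the Benjamini-Hochberg method. Strong sites were called before weak ones in both groups. Among 3359 CLAMP sites defined without these libraries, from both GAF RNAi CLAMP lists, the probability that a called site outranked an uncalled one was 0.880, 0.863 and 0.825 in controls and 0.847 and 0.843 after CLAMP RNAi. The difference was −0.0111, with an exact permutation p of 0.8 (adjusted 0.96).

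Peaks on X made up 35.8%, 38.4% and 34.2% of the equal-length control lists and 26.3% and 25.8% of those after CLAMP RNAi. The groups did not overlap: 36.1 ± 2.11% (SD, n = 3) against 26.0 ± 0.329% (n = 2), a difference of −10.1 points (exact permutation p = 0.2, adjusted p = 0.4). The result depends on the order used to cut the lists. With the 430 peaks of highest −log10 q the shares were 25.8%, 30.9% and 26.7% against 25.1% and 25.8%, a difference of −2.36 points. With 200 peaks of highest fold, added after seeing the data, they were 40.0%, 36.5% and 33.5% against 23.5% and 30.5%, and with 200 of highest −log10 q they overlapped, at 27.5%, 28.0% and 24.5% against 20.5% and 28.0%.

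The same lists were read at the CLAMP sites of the GAF RNAi libraries, whose rank does not come from the control libraries. Of the 213 X sites in the strongest quintile of these, the equal-length lists called 54.9%, 54.9% and 40.8% in controls and 33.8% and 31.5% after CLAMP RNAi. Of the 459 autosomal sites of that quintile they called 42.3%, 36.4% and 34.6% in controls and 40.5% in each CLAMP RNAi library. At equal length a lower share on X goes with a higher one on autosomes, so these values give only the balance between them. In the whole lists both fell: X sites were called at 100%, 98.6% and 90.1% in controls and 49.3% and 31.5% after CLAMP RNAi, and autosomal sites at 100%, 96.3% and 94.6% against 60.6% and 40.5%. Equal-length lists were cut by fold, on which the X share depended.

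Median peak width in the equal-length lists was 666, 339 and 515 bp in controls and 282 and 257 bp after CLAMP RNAi, a difference of −237 bp (exact permutation p = 0.2, adjusted p = 0.4). The groups did not overlap, but the controls themselves varied by more than the gap between them and the RNAi lists. Over whole lists the medians overlapped, at 284, 244 and 278 bp against 244 and 257 bp, a difference of −18.2 bp. Control MSL3 regions held 23.7%, 24.0% and 26.0% of control peaks and 19.1% and 18.8% after CLAMP RNAi, again without overlap (−5.62 points, exact permutation p = 0.2, adjusted p = 0.4). By −log10 q these shares were 18.8%, 21.4% and 20.2% against 17.9% and 18.8%. Clustered peaks made up 63.3%, 62.1% and 54.0% against 60.9% and 64.2%, and peaks at GAF control sites 62.1%, 55.3% and 53.3% against 57.9% and 55.8%. In both of these the groups overlapped.

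**Figure D5:**
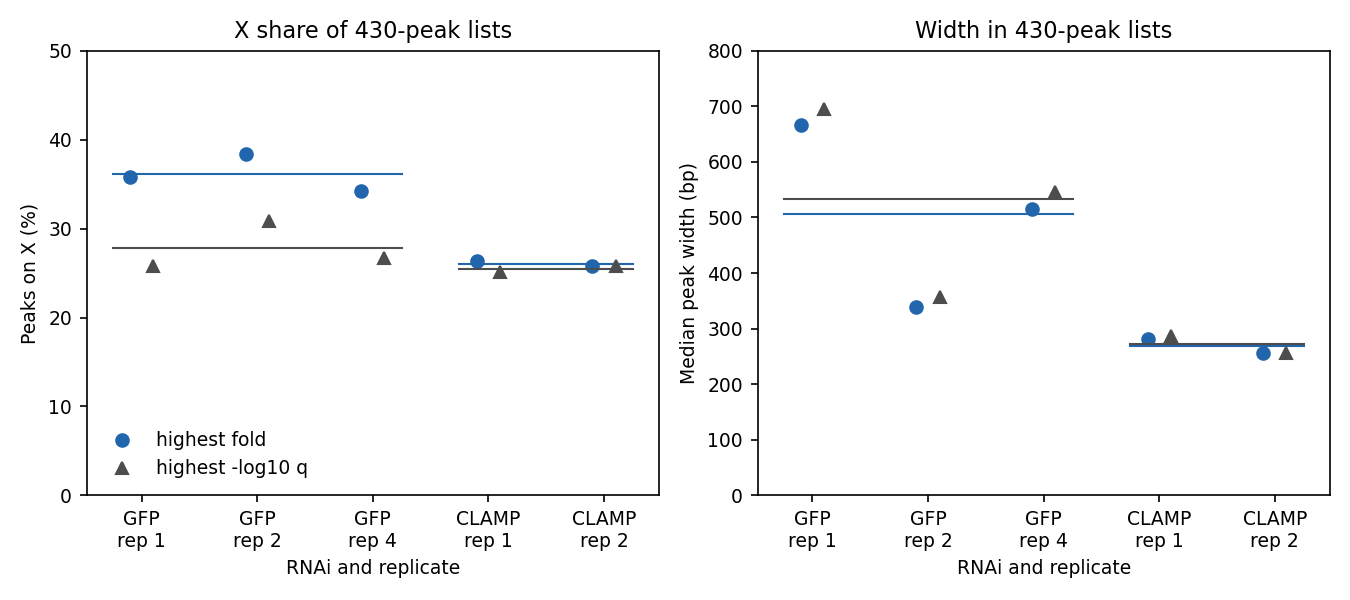
Percentage of peaks on X and median peak width in bp (y axes) by RNAi and replicate (x axes), in each library's 430 peaks of highest fold (circles) or highest −log10 q (triangles); each point is 1 library and lines are group means. By fold, the CLAMP RNAi libraries, at 26.3% and 25.8% on X and 282 and 257 bp, lie below all 3 controls, at 34.2% to 38.4% and 339 to 666 bp, while by −log10 q the X shares are 25.8% to 30.9% against 25.1% and 25.8%.

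Peaks found only after CLAMP RNAi were few and weak. The 7 of replicate 1 had folds of at most 2.50, ranked 623 or lower of 749. The highest was 2R 820911 to 821117, 5107 bp from the nearest control peak. Next in fold were 3R 20594895 to 20595070, 3R 25505385 to 25505598, 2L 1020577 to 1020742 and 2L 1102390 to 1102618. These 5 had a −log10 q of 0. None of the 7 was called in replicate 2.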

How the data were processed

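ChIP-seq libraries of S2 cells were analysed from the deposited narrow peak lists, 1 per library. The build is dm3, and the tools named are MACS2 2.1.1 and Bowtie, the latter without a version, per the submitters' processing notes. The caller's options and its control are not given in the sources used here. The authors called peaks per library, and each carries its own fold enrichment (a ratio), −log10 q and summit offset in bp. In the deposited lists these values belong to 1 library, so fold and −log10 q served to order or select peaks within a list. The file holds no read counts, so depth is unknown and no precision follows from it.

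Control lists were merged at an overlap of at least 1 bp, and regions called in at least 2 of 3 lists were control sites. The members, lists and comparisons were chosen with earlier results of these data known. GAF control sites (2 of 3 lists) and MSL3 control regions (2 of 4 lists) were made likewise. Differences at equal rank are means over 5 quintiles of fold rank, computed per library. Clopper-Pearson 95% intervals cover counting error only. Over libraries, exact two-sided permutation tests with Benjamini-Hochberg adjustment over 6 measures were used. Sites were named by a rule: the 10 of best mean fold rank, the 8 best called in neither RNAi list, the 8 worst called in both, the best of each arm, the 3 largest clusters, and the 5 strongest RNAi-only peaks per list. No gene is named, since no dm3 annotation was used here. Coordinates are 1-based. Regions off the 6 arms entered an alternative only. Alternatives were overlap, limits of −log10 q, order by −log10 q, neighbour distance, the replicate block and leaving out each library; limits of q at 0.05, lists of 200 peaks and strata of rank and width were added later. Python 3.11.15, numpy 2.4.6, scipy 1.17.1 and matplotlib 3.10.9 were used, and code was tested on simulated data.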

Additional observations from a re-analysis of the deposited data

How the results depend on the processing

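The fall of calls with control rank, the advantage of wide sites and the lower share on X kept their direction in every site comparison that gave a value, with these sizes. At a −log10 q of at least 5, where CLAMP RNAi replicate 2 has no peak and no value over libraries or for summits could be had, 0 sites were called in both lists and 441 were lost; in replicate 1 alone the differences were 30.1 (strongest minus weakest quintile), 10.1 (width), −8.21 (X) and 1.72 points (GAF). Averaged with the 0 of the empty list they come to 15.1, 5.04, −4.10 and 0.860, which says nothing about stability. At q of at most 0.05, chosen after seeing the data, 73 sites were called in both lists and the median summit distance was 10 bp. The mean differences were 32.1, 7.94 and −4.81 points (rank, width, X). They were 52.3, 14.1 and −8.12 in replicate 1. In replicate 2, where 76 of 430 peaks pass, they were only 11.8, 1.80 and −1.50. The GAF difference changed sign between the replicates, at 5.50 and −1.72 points. With sites of every control list X was −12 and clustering 1.79 points. With strength from −log10 q, width was 9.07, X −4.24, clustering −1.92 and GAF −0.0609. Neighbours within 5 kb gave 2.26 for clustering, and strata of rank and width gave 0.0344 for GAF. With whole lists, which differ in length, in place of equal-length lists, CLAMP RNAi minus control was 5.66 points for the share on X and 24.2 for the share at GAF sites, and the width difference was −18.2 bp. The cause was not tested in any of these.

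Leaving out each library gave 383 to 691 sites called in both lists (691 without CLAMP RNAi replicate 2) and 1113 to 1795 lost sites (1795 without GFP RNAi replicate 2). The ranges were 49.2 to 69.7 for rank, 12 to 21.6 for width, −11.3 to −6.31 for X, −0.868 to 3.17 for clustering, 2.1 to 6.81 for GAF and 12 to 13 bp for summits. In equal-length lists they were −0.0267 to 0.000965 for the probability of outranking, −11.6 to −8.95 for X, −321 to −158 bp for width, −0.116 to 4.53 for clustering, −1.86 to 3.20 for GAF and −6.05 to −4.67 for MSL3.

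Replicate numbers 1 and 2 occur in both groups, but the labels do not say that same-numbered libraries were made together. Their deviations from the group means correlated at −0.0546 and −0.0218 in the 2 pairs. With only 2 CLAMP RNAi libraries their deviations mirror each other, so these values cannot show whether a batch or culture was shared. With the replicate number as a block the X difference in equal-length lists was −11.0 points (exact permutation p = 0.5, the smallest possible) and clustering was −0.116. All 29 named sites kept their number of calls under an overlap of 50%. At a −log10 q of at least 5, where CLAMP RNAi replicate 2 has no peak, 9 kept it and 20 did not. Sites called in neither list could not lose a call there, and sites called in both had to lose at least 1. These counts therefore do not measure stability.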

Other observations

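Control CLAMP sites that stayed called after CLAMP RNAi were also called more often in the GAF libraries of CLAMP RNAi. Of the sites called in both CLAMP RNAi lists, 64.2%, 63.1% and 68.3% overlapped a GAF peak in the 3 CLAMP RNAi GAF libraries. The share was 67.6%, 64.3% and 70.5% for sites called in 1 list and 48.0%, 45.5% and 53.7% for sites called in neither. Over all control sites it was 52.7%, 50.3% and 57.8%. Under GAF RNAi the CLAMP antibody called 100% and 97.1% of the sites kept in both lists, and 86.7% and 77.1% of those kept in neither. These shares were not set at equal rank or width.

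Along the arms, 70 bins of 1 Mb held at least 20 control sites. The highest share of sites called in at least 1 CLAMP RNAi list was 47.8% (11 of 23) at 5 to 6 Mb of 2L, and the lowest 10.6% (5 of 47) at 11 to 12 Mb of X. The bins were picked by their result from 70 and no test is attached. Off the 6 arms, 2.98%, 0.138% and 0.0728% of the control lists and 0.133% and 0% of the CLAMP RNAi lists were found.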
